A study of Mus musculus with 8 samples.

Results

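The genes described here encode the proteins that cut, process and rejoin DNA in V(D)J recombination, the reaction that assembles antigen receptor genes in developing lymphocytes. They were chosen by their symbols in the mRNA table and are 10 of its 22298 entries: Rag1, Rag2, Dntt, Xrcc4, Xrcc5, Xrcc6, Lig4, Prkdc, Dclre1c and Nhej1. RNA was sequenced from B lineage cells sorted from the bone marrow of wild-type C57BL/6 female mice aged 8 to 10 weeks, at the pro-B, pre-B, immature and mature stages. Pro-B cells were gated as B220+ IgM- CD43+, pre-B cells as B220+ IgM- CD43-, immature B cells as B220+ IgM+ CD43- and mature B cells as B220hi IgM+ CD43-. The cells of 3 mice were pooled in each library, and each stage has 1 rRNA-depleted library, which gave the values of these genes, and 1 small RNA library. There are therefore no replicates, no difference between stages has a replicate check, and no p-values are given.

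V(D)J recombination begins when the RAG1 and RAG2 proteins, which act only as a complex, cut DNA beside the gene segments of an antigen receptor locus. The broken ends are then rejoined by classical non-homologous end joining, the general repair pathway that all cells use: Ku70 and Ku80 hold the ends, the kinase DNA-PKcs and the nuclease Artemis open and trim them, and DNA ligase IV with XRCC4 and XLF seals them. Terminal deoxynucleotidyl transferase, encoded by Dntt, adds nucleotides without a template at the junction. Heavy chain genes are assembled in pro-B cells and light chain genes in pre-B cells, immature B cells can still edit a self-reactive receptor, and the recombinase genes are normally off in mature B cells.

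The promoters of Rag1, Rag2 and Dntt are shown because these 3 genes carried the widest differences between stages. RefSeq gave a promoter for 9 of the 10 genes, and Prkdc had none in the table used. Each sequence is the 250 bases before the RefSeq start site of build GRCm38.p6, written 5′ to 3′ on the gene's own strand. Capitals mark 4 motifs searched on both strands: the E-box CANNTG, the FOXO motif GTAAACA, the MYB motif TAACNG and the CCAAT box CCAAT. The windows were chr2:101649533-101649782 on the minus strand for Rag1, chr2:101624462-101624711 on the plus strand for Rag2 and chr19:41029025-41029274 on the plus strand for Dntt.
Rag1: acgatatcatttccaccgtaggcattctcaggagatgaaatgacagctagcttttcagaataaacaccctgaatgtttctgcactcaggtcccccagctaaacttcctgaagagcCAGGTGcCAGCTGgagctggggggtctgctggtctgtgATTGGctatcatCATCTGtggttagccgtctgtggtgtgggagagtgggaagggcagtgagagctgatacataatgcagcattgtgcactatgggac
Rag2: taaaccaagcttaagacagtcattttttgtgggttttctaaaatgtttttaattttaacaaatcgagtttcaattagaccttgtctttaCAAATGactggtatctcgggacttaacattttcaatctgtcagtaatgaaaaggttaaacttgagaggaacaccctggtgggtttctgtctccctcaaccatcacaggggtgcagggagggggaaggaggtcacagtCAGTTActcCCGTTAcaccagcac
Dntt: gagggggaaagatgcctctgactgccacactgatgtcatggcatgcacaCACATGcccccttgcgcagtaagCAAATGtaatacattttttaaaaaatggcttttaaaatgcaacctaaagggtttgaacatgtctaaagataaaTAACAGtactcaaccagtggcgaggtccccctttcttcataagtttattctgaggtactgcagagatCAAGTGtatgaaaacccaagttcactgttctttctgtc
The Rag1 window held 3 E-box matches, which began at bases -135, -128 and -85 counted back from the start site, and 1 CCAAT box at -97. The Rag2 window held 2 MYB matches at -24 and -15 and 1 E-box at -161. The Dntt window held 3 E-boxes, at -201, -178 and -38, and 1 MYB match at -105. The E-box letters occurred in 66.2% of 32851 RefSeq promoter windows of this length, the CCAAT box in 33.8%, the MYB motif in 19.8% and the FOXO motif in 3.17%. None of these letters overlapped another match, and the FOXO letters were in none of the 3 windows. A match describes the letters only.

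The deposited mRNA counts summed to 867920 for pro-B, 240231 for pre-B, 223495 for immature B and 849350 for mature B cells. The unit used below is CPM, the counts for each 1000000 of that column total. The mRNA counts were 23.69% and 23.5% of the mRNA and lncRNA counts together in pro-B and mature B cells, and 6.475% and 6.477% in pre-B and immature B cells. The authors' FPKM values, which are scaled by transcript length and mapped fragments, differed from CPM by a median log2 value of -1.93 for pre-B against pro-B and 1.92 for mature B against immature B. The same shift was 0.02 for immature B against pre-B and 0.01 for mature B against pro-B. Directions between a library of the first kind and one of the second can depend on the scale, while ratios of counts inside 1 library do not depend on the scaling. The summed level of 6 B lineage genes was 4283 to 5776 CPM. From pro-B to mature B cells the 5 listed pro-B genes were at 1347, 179, 44.74 and 56.51 CPM. The 2 listed pre-B genes, at 250.3, 377.9, 482.4 and 9.27 CPM, were highest in the immature B library and not in the pre-B library. The 4 listed immature B genes were at 4337, 7530, 9504 and 5087 CPM. Igll1 had 427 counts in the pro-B library and 0 in the others, and of the 5 listed mature B genes, with 4427 CPM in mature B cells and 232.2 to 635.4 CPM in the others, Fcer2a was above 0 in mature B cells alone. Markers of other cell types were counted too. The summed level of 8 myeloid genes lay between 1206 and 1782 CPM in the 4 libraries, and that of 6 plasmacytoid dendritic genes was 1688 CPM in pro-B cells against 419.6 to 1068 CPM in the others. Of 8 T and NK genes 6 were above 0 in the pro-B library, with 217 counts (250 CPM, 106 of the counts from Gzma) against 5.89 to 8.95 CPM in the others, and Cd3d and Cd3e were at 0 there.

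A gene counted as past 2-fold when its CPM differed at least 2-fold and it had at least 10 counts in either library, with counts under 3 raised to 3. Over all genes counted this way, 14.8% stood higher and 29.2% lower when pre-B was set against pro-B, 18.9% higher and 20.2% lower in immature B than in pre-B cells, 24.2% higher and 18.1% lower in mature B than in immature B cells, and 13.2% higher and 24.2% lower in mature B than in pro-B cells. The higher share of all calls was 33.7% in pre-B against pro-B by CPM and 3.08% by FPKM, and 57.3% in mature B against immature B by CPM and 95.8% by FPKM. Intervals below are exact 95% intervals on read pairs, and they cover counting error only.

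**Figure D1:**
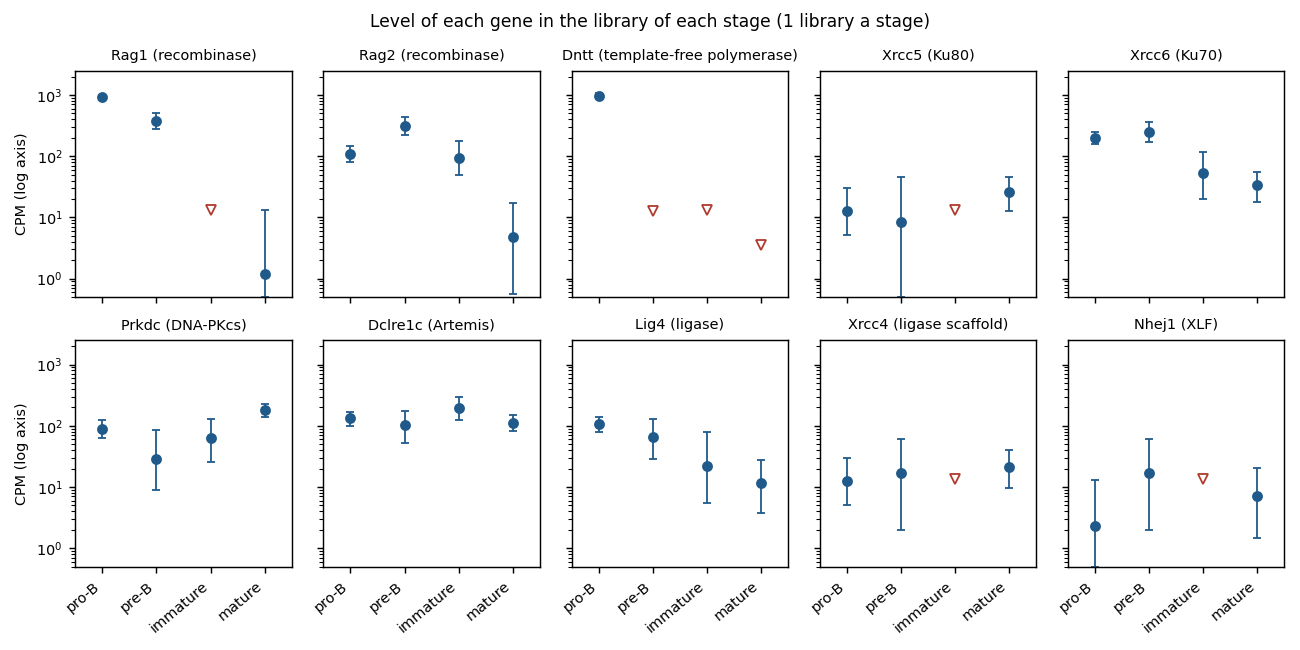
Level of each of the 10 genes in the rRNA-depleted library of each stage, in CPM on a log axis; circles are the values, bars the exact 95% counting interval (cut at the axis where it reaches under 0.5 CPM), and open triangles mark libraries listed at 0, drawn at the CPM that 3 counts would give. By CPM Rag1, Dntt and Lig4 are highest in pro-B cells, Rag2 and Xrcc6 in pre-B cells, and Prkdc in mature B cells, while by FPKM Rag2 and Xrcc6 are highest in pro-B cells.

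Both recombinase genes were low in mature B cells, at 1.18 and 4.71 CPM, but they did not follow the same course on the way there. Rag1, which encodes the subunit that cuts the DNA, had 797 counts at the pro-B stage (918.3 CPM), 89 at the pre-B stage (372.2 CPM), 0 at the immature B stage and 1 at the mature B stage (1.18 CPM). Rag2, which encodes the subunit that binds a histone mark of active chromatin and is needed for cutting, had 95 counts at the pro-B stage (109.5 CPM), 76 at the pre-B stage (316.4 CPM), 21 at the immature B stage (93.96 CPM) and 4 at the mature B stage (4.71 CPM). Rag1 thus stood highest in pro-B cells and was listed at 0 in a library where Rag2 still had reads. The Rag2 intervals of the pro-B library (81.6 to 146.7 CPM) and the immature B library (49.1 to 176.1 CPM) overlapped. In such bulk libraries fewer cells of a type and less RNA per cell cannot be told apart.

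In mature B against pro-B cells Rag1 was 780-fold lower (interval 69.7 to 15461), with the wide interval set by its 1 count, and Rag2 was 23.2-fold lower (6.16 to 199.5). The corresponding log2 ratios of FPKM were -9.53 for Rag1 and -5.07 for Rag2, beside -9.61 and -4.54 by CPM. With the 1 count of Rag1 raised to 3, its log2 ratio by CPM was -8.02. In immature B against pre-B cells Rag1 was 27.7-fold lower when its 0 is set to 3 counts and at least 10.9-fold lower at the limit of the interval, and Rag2 was 3.37-fold lower (1.61 to 6.97). In mature B against immature B cells Rag2 was 19.95-fold lower (4.56 to 194.1), with log2 ratios of -4.32 by CPM and -2.65 by FPKM. In the immature B library 3 counts correspond to 13.4 CPM, and the exact limit of a value of 0 on read pairs is 33.0 CPM.

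From pro-B to pre-B cells the direction of Rag2 depended on the scale. Its CPM was 2.89-fold higher in pre-B cells (1.82 to 4.47), a log2 ratio of 1.53, while its FPKM went from 7.41 to 4.21, a log2 ratio of -0.82. Rag1 was lower on both scales, 2.47-fold by CPM (1.80 to 3.42) and from 22.19 to 2.36 in FPKM. The ratio of their counts inside a library did not depend on how libraries were scaled. There were 8.39 Rag1 counts for each Rag2 count in the pro-B library (6.15 to 11.5) and 1.18 in the pre-B library (0.752 to 1.87). These intervals did not overlap, and that of the pre-B library included equal counts. In immature B cells the ratio was 0, with an upper limit of 0.398, and the 1 and 4 counts in mature B cells set it only between 0.00848 and 9.61. In FPKM, which allows for the different lengths of the transcripts, Rag1 stood 2.99 times as high as Rag2 in pro-B cells and 0.561 times as high in pre-B cells.

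**Figure D2:**
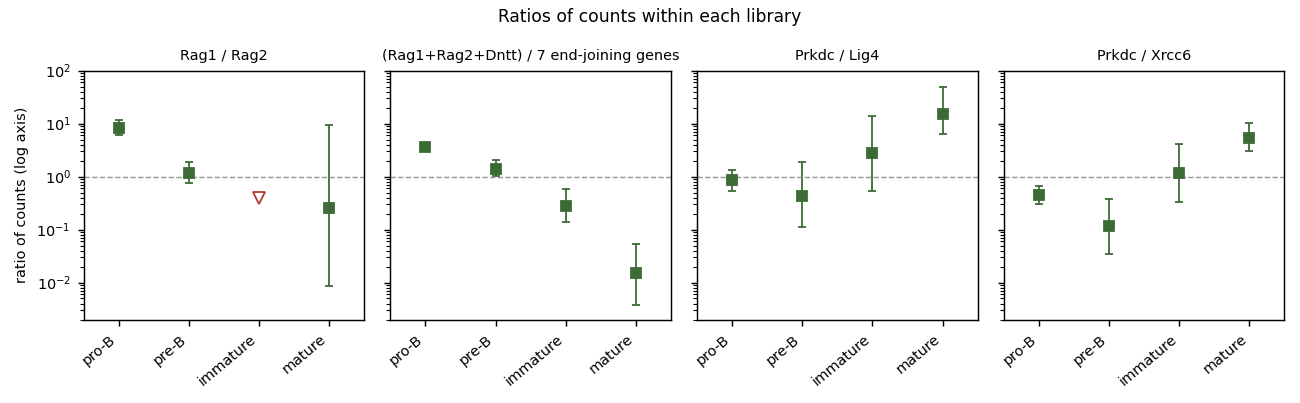
Ratios of counts inside each library, on a log axis, for Rag1 over Rag2, for Rag1, Rag2 and Dntt together over the 7 end-joining genes, for Prkdc over Lig4 and for Prkdc over Xrcc6; squares are the values, bars the exact 95% counting interval, the dashed line marks equal counts, and the open triangle is the upper limit where Rag1 was listed at 0. The Rag ratio goes from 8.39 to 1.18 between pro-B and pre-B cells, the share of recombination genes declines at every stage, and the 2 Prkdc ratios are highest in mature B cells. Counts are not divided by transcript length, and in FPKM Prkdc over Xrcc6 is 0.693 in mature B cells.

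Dntt, the template-free polymerase of the junctions, was seen in pro-B cells alone. It had 845 counts in the pro-B library (973.6 CPM, interval 884.1 to 1072) and was listed at 0 in the pre-B, immature B and mature B libraries, where the exact limit of a value of 0 on read pairs is 30.7, 33.0 and 8.69 CPM. Set to 3 counts it was 78.0-fold below its pro-B level in pre-B cells and 275.6-fold below it in mature B cells, and at the limit of the interval at least 31.6-fold and 111.7-fold. Per length it was the most abundant of the 10 genes in pro-B cells, with an FPKM of 79.61 that ranked 82 among 12821 genes above 0. Of the 1045 genes with counts in the pro-B library and 0 in the other 3, 148 had at least 10 counts and 6 had at least 100, and Dntt had the most. The next were Igll1, a part of the surrogate light chain, with 427 counts, the transcription factor Erg with 152, Arpp21 with 139, the platelet protein gene Mmrn1 with 121 and the cytotoxic granule gene Gzma with 106. A high gene listed at 0 was uncommon: of 2188 genes with at least 100 counts in pro-B cells, 1.87% were at 0 in the pre-B library, 1.92% in the immature B library and 0.777% in the mature B library. Of the 6 plasmacytoid dendritic genes, whose summed level was highest in the library that held Dntt, Siglech had 105, 0, 4 and 0 counts from pro-B to mature B cells and Runx2 was at 344.5, 16.65, 8.95 and 18.84 CPM, and the 5 genes other than Siglech were above 0 in every library. Siglech and Runx2 were picked after their values were seen, and the summed level of all 6 genes was 1688, 818, 1068 and 419.6 CPM. The part of plasmacytoid dendritic cells, and of T or NK cells, in the Dntt and Rag1 values was not tested.

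The Ku genes differed in course. Xrcc6, which encodes Ku70, had 171 counts at the pro-B stage (197.1 CPM), 59 at the pre-B stage (246.4 CPM), 12 at the immature B stage (53.87 CPM) and 29 at the mature B stage (33.78 CPM). Xrcc5, which encodes Ku80, its obligate partner, had 11, 2, 0 and 22 counts in the same order. There were 15.6 Xrcc6 counts for each Xrcc5 count in pro-B cells (6.32 to 40.1), 29.6 in pre-B cells (4.99 to 1224) but 1.304 among mature B cells (0.537 to 3.098). The pro-B and mature B intervals of the ratio did not overlap. Per length, the FPKM of Xrcc6 was 18.29 against 0.79 for Xrcc5 in pro-B cells, and 3.26 against 1.63 in mature B cells.

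Xrcc6 was 4.57-fold lower in immature B than in pre-B cells (1.91 to 13.7) and 5.83-fold lower in mature B than in pro-B cells (3.395 to 11.5). The log2 ratios of FPKM for these comparisons were -2.22 and -2.49, close to -2.19 and -2.54 by CPM. Between pro-B and pre-B cells its CPM ratio was 1.25 with an interval of 0.803 to 1.93, whereas the log2 ratio of FPKM was -1.04. Xrcc5 was 2.04-fold higher in mature B than in pro-B cells, but its interval of 0.635 to 6.17 included no difference. In pre-B against pro-B cells its log2 ratio was -0.61 by CPM and -2.50 by FPKM. In the immature B library, where Xrcc5 was listed at 0, 3 counts would be 13.4 CPM, which is above its level in pro-B cells of 12.7 CPM.

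Prkdc, which encodes the kinase DNA-PKcs, was the well-counted gene whose level was highest at the end of the series. It had 78 counts at the pro-B stage (89.87 CPM), 7 at the pre-B stage (29.14 CPM), 14 at the immature B stage (62.64 CPM) and 151 at the mature B stage (177.8 CPM). It was 1.98-fold higher in mature B than in pro-B cells (1.34 to 3.01), just inside the 2-fold limit, and its FPKM was 2.26 against 1.13. It was 2.84-fold higher in mature B than in immature B cells (1.32 to 7.35), and its log2 ratio of FPKM was 3.43. In pre-B cells it was 3.08-fold lower than in pro-B cells by CPM, with an interval of 0.974 to 10.4 that included no difference, and 11.3-fold lower by FPKM. In immature B cells it was 2.15-fold higher than in pre-B cells, with an interval of 0.478 to 8.76. Against its partners inside the same library, Prkdc had 0.456 counts for each Xrcc6 count in pro-B cells (0.302 to 0.669) but 5.26 among mature B cells (3.05 to 10.4). Per length the ratio rose too, but Prkdc stayed under Xrcc6, with FPKM ratios of 0.0618 in pro-B and 0.693 in mature B cells.

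Dclre1c, which encodes the hairpin-opening nuclease Artemis, was the steadiest of the well-counted genes by CPM. It had 115 counts at the pro-B stage (132.2 CPM), 24 at the pre-B stage (101.6 CPM), 44 at the immature B stage (195.3 CPM) and 94 at the mature B stage (110.4 CPM). Its CPM ratio for mature B against pro-B cells was 0.836 (0.560 to 1.26), and for pre-B against pro-B cells 0.769 (0.371 to 1.43). None of its 4 comparisons passed 2-fold in CPM. The scales disagreed on its direction between pre-B and immature B cells, with log2 ratios of 0.94 by CPM and -1.18 by FPKM although the scales differed by a median of 0.02 in this comparison. Between immature B and mature B cells they also gave opposite signs, -0.82 and 1.59.

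The ligation genes did not share a course. Lig4, which encodes the ligase itself, had 92 counts at the pro-B stage (106.0 CPM), 16 at the pre-B stage (66.6 CPM), 5 at the immature B stage (22.37 CPM) and 10 at the mature B stage (11.77 CPM). Its level was thus lower at each later stage by CPM, and it was 9.003-fold lower in mature B than in pro-B cells (3.59 to 29.0), a log2 ratio of -3.17 by CPM and -3.18 by FPKM. The single steps were less certain: the ratio of immature B to pre-B cells was 0.336 with an interval of 0.0689 to 1.68, and by FPKM the step to mature B cells had the opposite sign, 0.66 against -0.93. Xrcc4, the scaffold that holds the ligase, had 11, 4, 0 and 18 counts from pro-B to mature B cells, and its ratio of mature B to pro-B cells was 1.67 by CPM (0.487 to 5.23) and 2.90 by FPKM. In pre-B against pro-B cells the log2 ratio of Lig4 was -0.67 by CPM and -2.30 by FPKM, and that of Xrcc4 was 0.39 and -1.54. Nhej1, which encodes XLF, had 2, 4, 0 and 6 counts and stayed under the minimum of 10 in all libraries. There were 0.848 Prkdc counts for each Lig4 count in pro-B cells (0.539 to 1.33) but 15.1 among mature B cells (6.24 to 48.2), so these intervals did not overlap. In FPKM the ratio was 0.255 in pro-B and 4.61 in mature B cells.

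Summed by role, the recombination genes and the end-joining genes parted between stages. Rag1, Rag2 and Dntt together were at 2001 CPM at the pro-B stage, 688.5 at the pre-B stage, 93.96 at the immature B stage and 5.89 at the mature B stage. The 7 end-joining genes together were at 552.8, 485.4, 334.1 and 387.9 CPM. Their ratio inside each library was 3.62 at the pro-B stage (3.14 to 4.20), 1.42 at the pre-B stage (1.01 to 2.04), 0.281 at the immature B stage (0.137 to 0.595) and 0.0152 at the mature B stage (0.00371 to 0.0541), and no neighbouring intervals overlapped. By FPKM the ratio was 3.62, 0.477, 0.383 and 0.0156, so that its value in pre-B cells lay under 1 and near that of immature B cells. The course of the end-joining sum also depended on the scale. Each of the 7 genes had a lower FPKM in immature B than in pro-B cells and a higher one again in mature B cells. Between immature B and mature B cells the scales differ by a median log2 value of 1.92. By CPM 3 genes were highest at the pro-B stage, 3 at the pre-B stage, 1 at the immature B stage and 3 at the mature B stage, whereas by FPKM 6 were highest in pro-B cells and 4 in mature B cells. Per length, the order of the genes turned over as well. In pro-B cells Dntt, Rag1 and Xrcc6 led with FPKM values of 79.61, 22.19 and 18.29, and in pre-B cells Xrcc6 led with 8.87 before Rag2 with 4.21. In mature B cells Xrcc4 with 3.80, Dclre1c with 3.53 and Xrcc6 with 3.26 led, and Rag2 with 0.22 and Rag1 with 0.03 stood last before Dntt. Xrcc4 had only 18 counts there (9.69 to 40.2 CPM), so its order against Dclre1c and Xrcc6 is within counting error.

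The genes past 2-fold were counted beside all genes. In pre-B against pro-B cells 1 of 9 genes counted was past 2-fold higher (Rag2) and 3 were lower (Rag1, Dntt and Prkdc), beside 14.8% and 29.2% of all genes. In immature B against pre-B cells 1 of 6 was higher (Prkdc) and 4 were lower (Rag1, Rag2, Xrcc6 and Lig4), beside 18.9% and 20.2%. In mature B against immature B cells 1 of 7 was higher (Prkdc) and 1 lower (Rag2), beside 24.2% and 18.1%. In mature B against pro-B cells 1 of 9 was higher (Xrcc5) and 5 were lower (Rag1, Rag2, Dntt, Xrcc6 and Lig4), beside 13.2% and 24.2%. The median log2 ratio of the genes counted was -0.38, -1.66, -0.67 and -2.54 in these comparisons, beside -0.37, -0.02, 0.19 and -0.19 over all genes counted, with values of 0 entered at 3 counts. These comparisons share libraries. By FPKM, 7 of the 9 were past 2-fold lower and 0 higher in pre-B against pro-B cells, with Dntt and Xrcc5 called from shifted count ratios. Of all 9148 genes counted in that comparison, 7467 were past 2-fold lower and 237 higher by FPKM, so most genes went the same way.

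**Figure D3:**
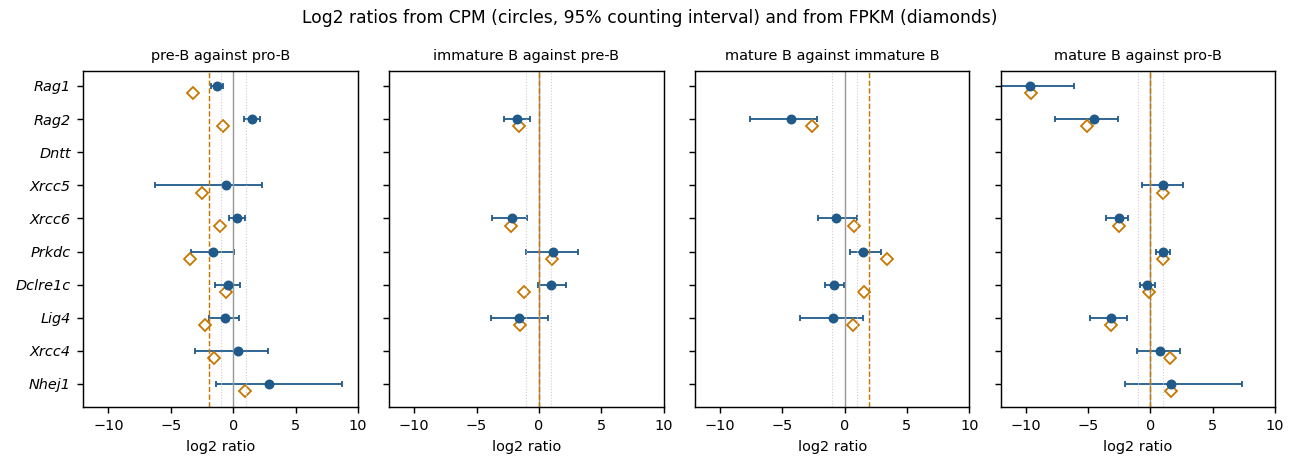
Log2 ratios of the 10 genes in the 4 comparisons, from CPM (circles, with the exact 95% counting interval) and from FPKM (open diamonds); dotted lines mark 2-fold, the dashed line the median shift between the scales, and genes listed at 0 in either library have no point. The scales have nearly the same median for mature B against pro-B cells, where Rag1, Rag2, Xrcc6 and Lig4 lie to the left on both and Xrcc4 is at 0.74 by CPM and 1.54 by FPKM, and part by the dashed line for pre-B against pro-B cells, where Rag2 is at 1.53 by CPM and -0.82 by FPKM.

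The partners of the pathway were described by 4 lists of 46 genes in all. In pre-B against pro-B cells 6 of 42 counted were past 2-fold higher and 10 lower, and in immature B against pre-B cells 3 of 31 were higher and 7 lower. In mature B against immature B cells 14 of 39 were higher and 8 lower, and in mature B against pro-B cells 2 of 43 were higher and 13 lower. The shares of all genes were 14.8% and 29.2%, 18.9% and 20.2%, 24.2% and 18.1%, and 13.2% and 24.2%. Their median log2 ratio was -0.36, -0.30, 0.66 and -0.38 in these comparisons, beside -0.37, -0.02, 0.19 and -0.19 over all genes counted.

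Among 12 end-joining partners, 5 were past 2-fold lower in mature B than in pro-B cells (Hmgb1, Hmgb2, Polm, Poll and Wrn), beside 24.2% of all genes. Hmgb1 and Hmgb2, chromatin proteins that bend DNA for the RAG complex, had the most counts among them. Hmgb1 was at 792.1, 610.0, 478.7 and 320.5 CPM from pro-B to mature B cells, and 2.47-fold lower in mature B than in pro-B cells. Hmgb2 was at 821.5, 649.4, 264.0 and 319.1 CPM, and 2.58-fold lower. Both stood highest in the pro-B library on both scales, at an FPKM of 113.74 for Hmgb1 and 73.43 for Hmgb2. Poll, a gap-filling polymerase, had 12, 0, 4 and 4 counts.

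Among 13 genes of the response to DNA breaks, 1 of 11 counted was higher in mature B than in pro-B cells and 1 was lower, beside 13.2% and 24.2% of all genes. Nbn, a part of the MRN complex that senses breaks, had 8, 2, 0 and 30 counts, and H2ax, the histone marked at breaks, had 81, 16, 9 and 15 counts and was 5.27-fold lower in mature B cells. Trp53bp1, which protects broken ends from resection, was at 325.9, 836.7, 954.9 and 226.1 CPM and had the most counts of the list, with the highest CPM in immature B cells and, at 7.53, 3.72, 4.32 and 7.30, the lowest FPKM in pre-B cells. Rif1, its partner, had 148 counts in pro-B cells, was listed at 0 in pre-B cells, and had 6 in immature B and 159 in mature B cells.

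Alternative end joining, the repair route used when the classical pathway is missing, had 5 of 7 genes past 2-fold lower in mature B than in pro-B cells (Lig3, Lig1, Xrcc1, Rbbp8 and Fen1) and none higher, beside 24.2% and 13.2% of all genes. Xrcc1, a scaffold of single-strand repair, had 34, 19, 0 and 4 counts and was 8.32-fold lower by CPM. The difference was smaller by FPKM, which was 2.90 in pro-B, 1.53 in pre-B, 0 in immature B and 1.10 in mature B cells. Lig1, the replicative ligase, had 70, 7, 2 and 25 counts and was 2.74-fold lower, and Lig3 had 11, 0, 0 and 0 counts. Parp1, a sensor of DNA nicks, was the most counted, at 251.2, 108.2, 89.49 and 290.8 CPM and an FPKM of 10.35, 1.81, 1.62 and 12.06, and its ratio of mature B to pro-B cells was 1.16. Cell cycle genes, several of which serve DNA replication as Lig1 and Fen1 do, had a summed level of 1705 CPM in pro-B cells and 696.5, 367.3 and 463.9 CPM in the later libraries, and their part in these values was not tested.

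Of 14 transcription factors that act on the Rag locus or in early B cells, 2 of 13 counted were past 2-fold lower in mature B than in pro-B cells, Tcf3 and Myb, and none was higher, beside 24.2% and 13.2% of all genes. Myb, which is known to act on the Rag locus in progenitors, had 1189 counts at the pro-B stage (1370 CPM), 280 at the pre-B stage (1166 CPM), 69 at the immature B stage (308.7 CPM) and 21 at the mature B stage (24.72 CPM), or 55.4-fold lower in mature B than in pro-B cells. Its FPKM was 67.37, 15.46, 4.20 and 1.12. Tcf3, which encodes the E proteins E12 and E47, was at 629.1, 915.8, 313.2 and 235.5 CPM and 2.67-fold lower in mature B than in pro-B cells, and by FPKM it was highest in pro-B cells, at 46.48 against 13.55 in pre-B cells. Pax5, the factor that commits cells to the B lineage, was at 1187, 843.6, 1242 and 1958 CPM, and Ets1 at 735.1, 345.5, 407.2 and 1402 CPM, and both had their highest level, also by FPKM (90.58 and 57.48), in mature B cells, where Rag2 had its lowest.

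**Figure D4:**
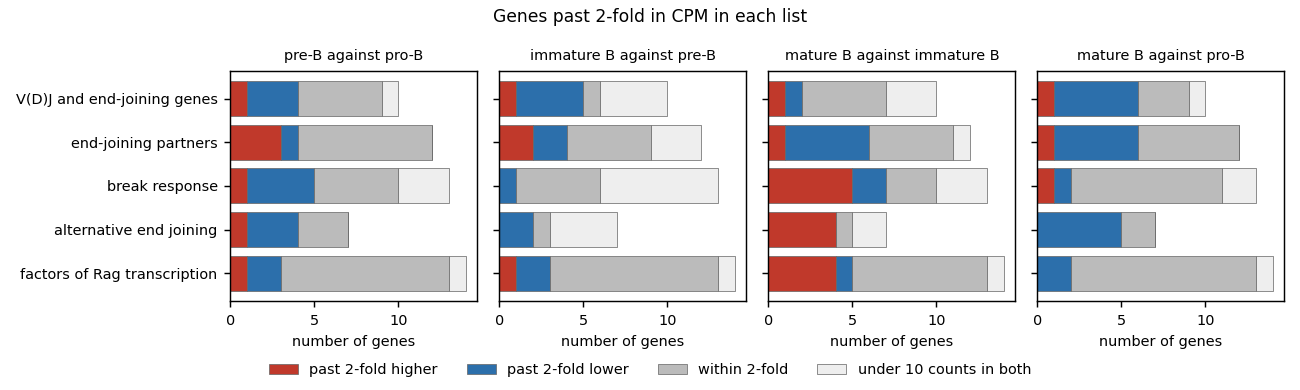
Number of genes past 2-fold higher (red), past 2-fold lower (blue), within 2-fold (grey) and under 10 counts in both libraries (pale) for the 10 V(D)J and end-joining genes and the 4 lists of partner genes, by comparison, in CPM. In mature B against pro-B cells 5 of the 9 genes counted, 5 of 12 end-joining partners and 5 of 7 alternative end-joining genes are lower. In the same comparison 1 of 11 break response genes counted and 2 of 13 transcription factors counted are lower, beside 24.2% of all genes.

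Rag1 and Rag2 lie beside each other on chromosome 2, read toward each other, with Traf6 next to Rag1 and Iftap, which overlaps Rag2, on the other side. Traf6, a signalling ubiquitin ligase, had 276 counts at the pro-B stage (318.0 CPM), 58 at the pre-B stage (241.4 CPM), 15 at the immature B stage (67.12 CPM) and 115 at the mature B stage (135.4 CPM). Its FPKM was 11.92, 3.11, 0.89 and 5.63. It was past 2-fold lower in immature B than in pre-B cells, as both Rag genes were, but it was higher again in mature B cells, where they were not. Prr5l, further along, had 11, 0, 6 and 2 counts, and Iftap, listed by its older name B230118H07Rik, had 1, 3, 0 and 2 counts.

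The genes most like each Rag gene were found from the share of the summed CPM that each library held, over the 4 libraries and 4739 genes with at least 100 counts. Those nearest to Rag1, with shares of 71.1%, 28.8%, 0% and 0.0911%, were Smtnl2, Plxdc1, Tnfrsf19, Esr1 and Bst1. Those nearest to Rag2, with 20.9%, 60.3%, 17.9% and 0.898%, were Myl4, Arl5c, Cdc42ep3, 6430550D23Rik and H3c4. Rag2 itself ranked 2102 in likeness to Rag1, and Rag1 ranked 3453 in likeness to Rag2. The summed difference of shares was 1.005 between the Rag genes. It was 0.047 between Rag1 and Smtnl2 and 0.060 between Rag2 and Myl4, which were picked as the smallest and give no typical difference. These lists hold for CPM. By FPKM, a scale added after seeing the data, the shares of Rag1 were 90.3%, 9.60%, 0% and 0.122% and those of Rag2 were 56.1%, 31.8%, 10.4% and 1.66%, so that Rag2 too held its largest share in pro-B cells. By FPKM, Rag2 ranked 431 in likeness to Rag1 and Rag1 ranked 1411 in likeness to Rag2, and of the 5 genes nearest by CPM 2 stayed among the 5 nearest to Rag1 and 0 among those nearest to Rag2.

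**Figure D5:**
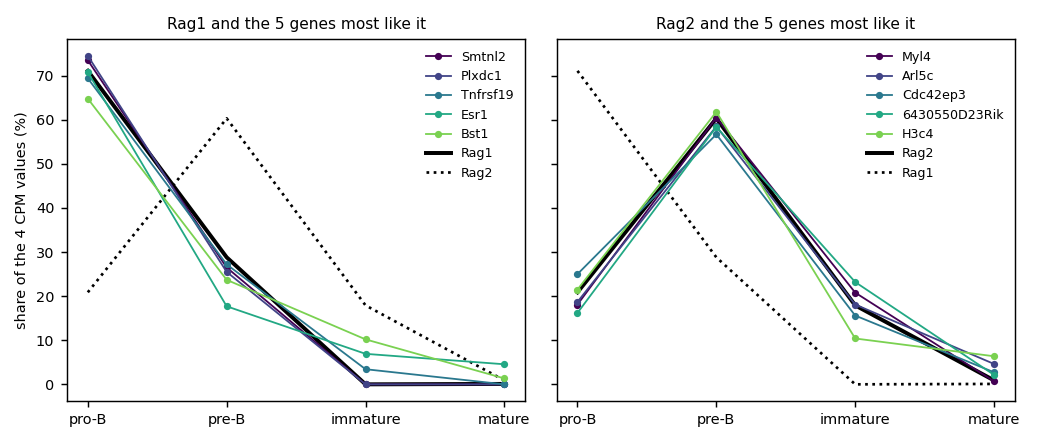
Share of the 4 CPM values held by each library, in percent, for Rag1 with the 5 genes most like it (left) and Rag2 with the 5 most like it (right); the solid black line is the named Rag gene and the dotted black line the other. By CPM, Rag1 and the genes like it hold 64.8% to 74.5% of their level in pro-B cells, and Rag2 and the genes like it 56.7% to 61.8% in pre-B cells, while by FPKM Rag2 holds 56.1% in pro-B cells.

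Other tables of the series held few reads of these genes. None of the 1005 listed circRNAs had any of the 10 genes as its source. The lncRNA table had 7 transcripts under their symbols among 38663, and 2 were above 0: a Dntt transcript with an estimated 12.4 counts in pro-B cells, the library that held the Dntt mRNA, and a Dclre1c transcript with 5.59 in pre-B cells.

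The miR-29 family was measured in the small RNA libraries and is described because miR-29c is known as a regulator of Rag1. Its mature sequences in RefSeq are the same as the deposited ones and share the seed, bases 2 to 8, which stands in capitals.
mmu-miR-29a-3p: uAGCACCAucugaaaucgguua
mmu-miR-29b-3p: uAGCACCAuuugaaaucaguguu
mmu-miR-29c-3p: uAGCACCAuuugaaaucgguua
Counted from the 5′ end, miR-29a-3p and miR-29c-3p differ by C10U alone. miR-29a-3p had 3029 tags at the pro-B stage, 2791 at the pre-B stage, 5792 at the immature B stage and 15267 at the mature B stage, or 3004.5, 1553.8, 2219.6 and 10983 TPM, the deposited unit, which divides by all clean tags. Intervals here are on tags. miR-29b-3p was at 55.5, 15.03, 18.4 and 162.6 TPM, and miR-29c-3p, with 16, 13, 15 and 34 tags, at 15.9, 7.24, 5.75 and 24.5 TPM. All 3 were higher in mature B than in immature B cells, by 4.95-fold (4.80 to 5.10), 8.84-fold (6.45 to 12.3) and 4.26-fold (2.26 to 8.41), beside 33.2% of 656 miRNAs past 2-fold higher. Against pro-B cells miR-29a-3p was 3.66-fold and miR-29b-3p 2.93-fold higher in mature B cells, whereas the interval of miR-29c-3p, 0.828 to 2.99, included no difference. Of 677 miRNAs 13.9% were past 2-fold higher in that comparison. In pre-B against pro-B cells the ratios of miR-29a-3p, miR-29b-3p and miR-29c-3p were 0.517, 0.271 and 0.456 (the last 0.202 to 1.01), beside 41.4% of 679 miRNAs past 2-fold lower. Between pre-B and immature B cells, where Rag1 went from 89 counts to 0, the ratio of miR-29c-3p was 0.794 (0.353 to 1.81) and that of miR-29a-3p 1.43 (1.37 to 1.495).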

How the data were processed

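Total RNA of sorted bone marrow cells gave 1 strand-specific rRNA-depleted library and 1 small RNA library per stage, 8 libraries in all, assigned to stages by their labels. The authors removed rRNA reads, mapped the others with HISAT2 and deposited estimated counts from StringTie for mRNAs and lncRNAs, not all whole, beside FPKM values. Deposited miRNA values are counts of tags and TPM, and those of circRNAs are counts of back-spliced reads and RPM, the latter not used. The genome build of the mapping is not given in the paper's methods, and the submitters' processing notes list mm9 and Bowtie 0.12.2. Columns of annotation other than symbols were not used.

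CPM was the estimated count over the column total, with rows of a duplicated symbol summed (26 symbols). Of the whole counts up to 20, 76% to 79% were even, so counts were taken as mates of read pairs and divided by 2 for the intervals: exact Poisson for levels and exact conditional binomial for ratios, both at 95%. A call needed a 2-fold ratio of CPM and at least 10 counts in either library, with a floor of 3 counts. For a library at 0 the ratio is given against 3 counts and at the limit of the exact interval. Calculations were run in Python 3.11.15 (scipy 1.17.1, pandas 2.3.3, numpy 2.4.6) and figures drawn with matplotlib 3.10.9. For the alternatives edgeR 4.0.16 was used in R 4.3.3, and the scripts were tested on simulated data first. For edgeR the estimated counts were rounded and not divided by 2. The genes and lists were chosen with earlier results of these data known. Named were the 10 genes, from each list the 2 genes with the most counts and the 2 with the widest ratio of mature B to pro-B cells, and the 5 genes most like Rag1 and Rag2 or, for Dntt, with the most counts among those at 0 in the same libraries. A gene of the partner lists that this rule names is not reported here. The neighbouring gene Iftap and the marker genes were named outside this rule, after their values were seen.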

Additional observations from a re-analysis of the deposited data

How the results depend on the processing

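No paired analysis was possible because each stage had 1 library, which also left no replicate to leave out. The scale of the counts mattered most. With the authors' FPKM values 0 of the 10 genes were past 2-fold higher and 7 lower in pre-B against pro-B cells, 4 were higher in mature B against immature B cells, and 3 were higher in mature B against pro-B cells. Dntt and Xrcc5 in the first comparison and Xrcc4 and Xrcc5 in the second were called from count ratios with the median shift added. The FPKM calls of the partner genes and of all genes followed the same rule. Of the 46 partner genes 1 was higher and 37 lower in pre-B against pro-B cells, and 30 were higher and 1 lower in mature B against immature B cells. By FPKM 6 of the 10 genes were highest at the pro-B stage, 0 at pre-B and 0 at immature B. Scaling to the total of mRNA and lncRNA counts, chosen after seeing the data, gave 0 higher and 8 lower in pre-B against pro-B cells and 5 higher in mature B against immature B cells. On these scales the log2 ratio of Rag2 in pre-B against pro-B cells was -0.82 and -0.34 in place of 1.53. Over all genes the calls in pre-B against pro-B cells were 1358 higher and 2667 lower by CPM, 237 and 7467 by FPKM, and 213 and 7641 by the common total, and in mature B against immature B cells 2025 and 1512, 6480 and 284, and 6668 and 271. The genes counted were 9148 and 8360. In mature B against pro-B cells 1447 of 9630 were higher by FPKM.

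TMM factors gave 2 higher genes in mature B against immature B cells, Xrcc5 and Prkdc, and TMM and RLE factors both gave 2 higher, the same genes, in mature B against pro-B cells, with 4 partner genes higher there. Over all genes, TMM factors gave 2249 of 8360 higher in mature B against immature B cells. In mature B against pro-B cells 1461 of 9630 were higher with TMM and 1519 with RLE factors. A minimum of 1 count added Nhej1, for 2 higher in pre-B and in mature B against pro-B cells. A minimum of 30 counts, an interval that leaves out no difference and the edgeR exact test at a fixed dispersion of 0.0001 each left 0 higher in immature B against pre-B and in mature B against pro-B cells, and the first also 0 lower in mature B against immature B cells. With 1 library a stage the edgeR test measures counting error only, and it was run on counts not divided into read pairs. It therefore takes less counting error than the intervals do. It kept Prkdc lower in pre-B against pro-B cells and Lig4 lower in immature B against pre-B cells, although their intervals included no difference. With a minimum of 1 count 2260 genes were higher in pre-B against pro-B cells, 1724 in immature B against pre-B cells, and 2570 were lower in mature B against immature B cells. With 30 counts the calls were 581 higher in pre-B against pro-B cells, 282 higher and 317 lower in immature B against pre-B cells, 611 lower in mature B against immature B cells, and 712 higher and 1250 lower in mature B against pro-B cells. A floor of 6 counts, chosen after seeing the data, and totals without mitochondrial and immunoglobulin genes left the counts of the 10 genes as they were.

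Depth limits the pre-B and immature B libraries most. A gene had to exceed 12.5 and 13.4 CPM there to pass 3 counts, against 3.46 and 3.53 CPM in pro-B and mature B cells. Xrcc4, Xrcc5 and Nhej1, with at most 22 counts in a library, could not show a moderate difference.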
